A study of Neurospora crassa with 8 samples.

Results

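The question here was whether the medium changes how the ve-1 mutation affects the transcriptome of Neurospora crassa, a filamentous ascomycete fungus. The quantity analysed is the interaction: the log2 difference between the ve-1 mutant and wild type in iron-free medium, minus the same difference in standard medium. All 8 of the 8 libraries of the study enter it, and 8118 of the 9730 genes in the deposited count tables had enough reads to be tested. A positive interaction means that the mutant stood higher against wild type without iron than with it, and a negative one that it stood lower.

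The 4 groups, each of 2 cultures, were ve-1 in iron-free Vogel's medium, wild type in iron-free medium, ve-1 in standard Vogel's medium and wild type in standard medium. Every culture was shaken for 48 h at 32 °C with 1.5% sucrose as the sugar, and poly(A) RNA was sequenced; the labels name the source as germinated conidia and the tissue as mycelia. Iron was left out of the iron-free medium, whose glassware was stripped of metal with EDTA and acid. The labels name the mutant only as ve-1 and do not say what kind of allele it carries, and 48 h is the only time sampled. The names of the deposited files, unlike the sample labels, carry an identifier that differs between the 2 replicates of a genotype and is the same for a replicate number in both media; what it stands for is not given in the sources used here, though it can be read as the number of a strain. RNA from a whole culture cannot tell fewer cells of a type apart from less RNA per cell, and the p-values measure the spread between these duplicate cultures only.

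The velvet proteins, of which VE-1 is one, are fungal regulators that carry a DNA-binding fold and act with partner proteins in the nucleus. In several filamentous fungi they balance asexual sporulation, sexual development and secondary metabolism, and VE-1 is the Neurospora relative of VeA of Aspergillus. Iron is a cofactor of the cytochromes, of the iron-sulfur clusters of the respiratory chain and of the enzyme aconitase. Fungi scavenge it with siderophores, whose genes are held down in iron-replete cells by GATA-type repressors such as SRE.

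The targeted gene checked the labels first. The ve-1 transcript stood at 1.76 and 6.43 CPM (read counts scaled to a common library size, with TMM factors) in ve-1 iron-free cultures, 269 and 226 CPM in wild-type iron-free cultures, 2.79 and 4.41 CPM in ve-1 standard cultures and 156 and 231 CPM in wild-type standard cultures. It was low in all 4 mutant libraries, and its interaction was -0.13 ± 0.76 (log2 ± SE, adjusted p = 0.943, edgeR). The iron label was checked with sre, the gene of the siderophore repressor. It stood at 7.28 and 7.96 CPM in ve-1 iron-free, 8.12 and 13.1 CPM in wild-type iron-free, 151 and 191 CPM in ve-1 standard and 173 and 117 CPM in wild-type standard cultures, low without iron in both genotypes. Its interaction was -0.71 ± 0.44 (edgeR adjusted p = 0.391), and that of ssp-1, the other gene in the iron and siderophore list, was 0.24 ± 0.34 (edgeR adjusted p = 0.715).

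Total counts ran between 6654585 and 10192729 per library. The 2 cultures of a group were not alike in every respect. The transcript matA-1, of mating type A, had 1 and 5 counts in ve-1 iron-free, 74 and 0 in wild-type iron-free, 0 and 403 in ve-1 standard and 118 and 0 in wild-type standard cultures, so replicates within 3 of the groups differed in it. Between media the wild-type counts repeated by replicate number and the ve-1 counts did not. The summed level of 6 conidiation markers (eas, con-6, con-8, con-10, con-13 and fl) was 53400 and 3130 CPM in ve-1 iron-free, 2920 and 6710 CPM in wild-type iron-free, 104000 and 118000 CPM in ve-1 standard and 58500 and 15700 CPM in wild-type standard cultures. In 6 of the libraries most of it was eas, the gene of the conidial hydrophobin. In the wild-type iron-free libraries con-8 was the larger, at 1570 and 5430 CPM beside 1250 and 1070 CPM of eas. Of the 6 markers, con-13 was the one with libraries at 0 counts, in ve-1 iron-free replicate 2 and wild-type iron-free replicate 2. The summed level of 7 markers of sexual tissue (asd-1, asd-3, poi-2, pre-1, pre-2, mfa-1 and ccg-4) was 95.9 and 47.7 CPM in ve-1 iron-free, 486 and 375 CPM in wild-type iron-free, 2790 and 250 CPM in ve-1 standard and 281 and 283 CPM in wild-type standard cultures. In ve-1 standard replicate 1, where ccg-4 had 0 counts, it came mainly from the pheromone gene mfa-1 (2050 CPM) and from poi-2 (633 CPM). The members went different ways, with asd-1 at 456 and 354 CPM in wild-type iron-free and 16.6 and 12.1 CPM in ve-1 standard cultures. The close wild-type standard sums came mainly from ccg-4 at 162 and 0.151 CPM and asd-1 at 100 and 252 CPM. The part of these differences in the results below was not tested.

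With edgeR's quasi-likelihood test over all 8118 genes, 20 genes passed an adjusted p of 0.05 in the interaction, 0.246% of those tested. Of them, 7 were higher (0.0862%) and 13 lower (0.16%). Unadjusted p fell under 0.05 for 1650 genes (20.3%), 912 higher (11.2%) and 738 lower (9.09%). The adjusted p of many genes lay just above the threshold, and 171 genes (2.11%) were under 0.10, of which 90 were higher (1.11%) and 81 lower (0.998%), and DESeq2, run as an alternative, called 601 of 7960 genes (7.55%), 299 higher (3.76%) and 302 lower (3.79%), with all 20 of the edgeR genes among them. The calls depend on the full set of libraries: leaving out 1 at a time left between 0 and 13 of the 20 called. They also depend on whether cultures of the same genotype and replicate number are matched between media. With a replicate block on genotype and number together, 14 genes were called (4 higher, 10 lower) and 8 of the 20 were among them, namely NCU01057, NCU04482, NCU05188, NCU05887, NCU06974, NCU07610, NCU10015 and NCU10016; the edgeR adjusted p of the 20 then lay between 0.00995 and 0.11. All 20 had the same sign in each of the 16 alternatives that were run.

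**Figure D1:**
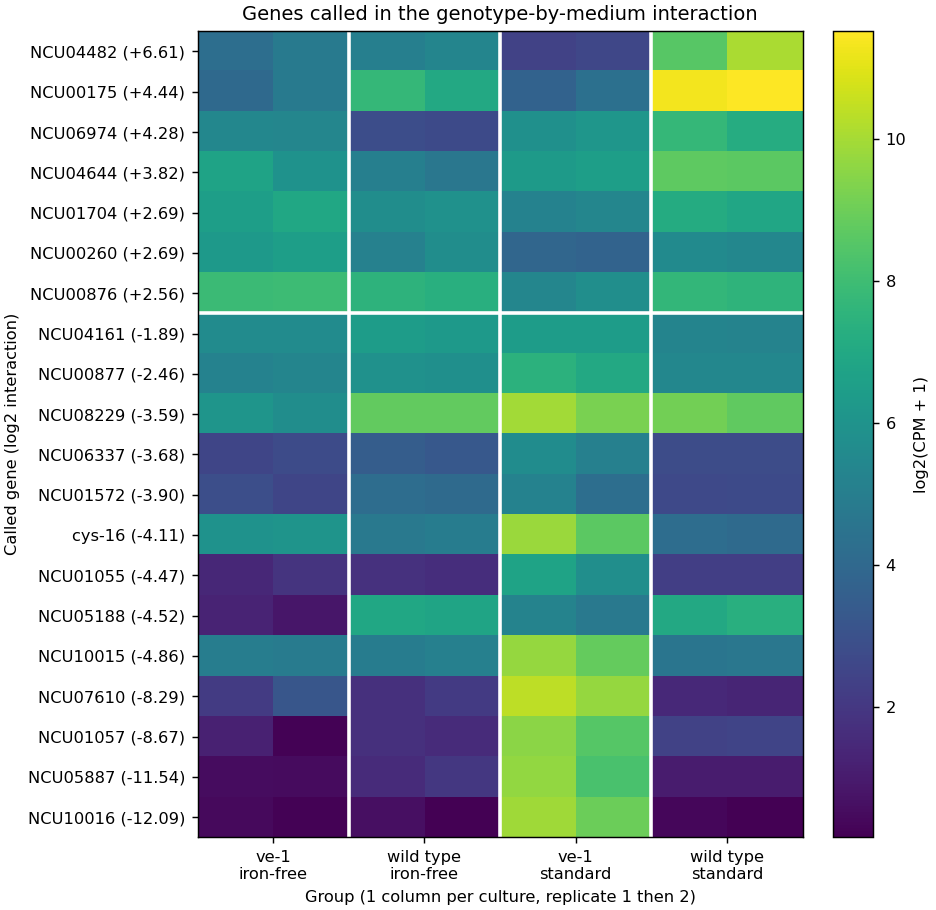
Level of the 20 called genes in each library as log2(CPM + 1), with genes from the highest to the lowest interaction down the page, the interaction in parentheses, and 2 columns per group. In the lower block the bright cells sit mostly in the ve-1 standard columns. NCU05188 is dark in ve-1 iron-free, and NCU08229 is less bright there than in its other columns.

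The commonest form among the 13 lower genes was a transcript abundant in mutant cultures with iron. In 12 of the 13, both ve-1 standard libraries lay above all 6 others, against 1373 of the 8118 tested genes (16.9%). For 11 of the 13 the effect of iron was called in ve-1 and not in wild type, against 19.3% of all tested genes. Because the sign of the interaction itself favours some of these forms, the shares describe the called genes and are no test of them. The summed conidiation markers were also highest in the ve-1 standard libraries, at 104000 and 118000 CPM. Most of that sum was eas, and con-6, con-8 and con-10 were also highest in both ve-1 standard libraries. For fl and con-13, ve-1 iron-free replicate 1, at 308 and 39.1 CPM, lay above ve-1 standard replicate 1, at 274 and 36.4 CPM. The part of these markers in the form above was not tested.

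The largest of these differences set an abundant transcript in 1 group against 3 nearly empty groups. NCU10016 had 3 and 2 raw counts in ve-1 iron-free, 6 and 1 in wild-type iron-free, 6840 and 3156 in ve-1 standard and 2 and 1 in wild-type standard cultures. Its interaction was -12.09 ± 1.31 (edgeR adjusted p = 0.0341), a fitted value that depends on the prior count because 3 groups are nearly empty. NCU05887 stood at 0.47 and 0.40 CPM in ve-1 iron-free, 1.98 and 3.04 CPM in wild-type iron-free, 809 and 305 CPM in ve-1 standard and 1.01 and 1.06 CPM in wild-type standard cultures, an interaction of -11.54 ± 0.87 (edgeR adjusted p = 0.0147). The 2 ve-1 iron-free libraries were the lowest of the 8 for this gene, so the mutant was above wild type in one medium and below it in the other, and both differences were called. The difference without iron rests on few reads, 4 and 5 raw counts in ve-1 against 22 and 26 in wild type. The wild-type standard libraries had 7 and 7.

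NCU07610 stood at 3.41 and 8.28 CPM in ve-1 iron-free, 2.35 and 3.27 CPM in wild-type iron-free, 1317 and 840 CPM in ve-1 standard and 1.73 and 1.51 CPM in wild-type standard cultures. Its interaction of -8.29 ± 0.72 (edgeR adjusted p = 0.0147) stayed called in 12 of the 16 alternatives, 4 of the 8 with a library left out among them. NCU01057 stood at 1.29 and 0.16 CPM in ve-1 iron-free, 2.35 and 1.99 CPM in wild-type iron-free, 746 and 368 CPM in ve-1 standard and 4.33 and 4.53 CPM in wild-type standard cultures (interaction -8.67 ± 0.98, edgeR adjusted p = 0.0341). For both, no library outside ve-1 standard came near the 2 that were high. None of these loci has a symbol or a product in the annotation table, so no role is given to them.

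The same form held at a higher base level in NCU10015, with 30.0 and 28.8 CPM in ve-1 iron-free, 29.2 and 33.3 CPM in wild-type iron-free, 839 and 449 CPM in ve-1 standard and 23.0 and 24.3 CPM in wild-type standard cultures (interaction -4.86 ± 0.47, edgeR adjusted p = 0.017). NCU01055 (-4.47), NCU01572 (-3.90), NCU06337 (-3.68), NCU00877 (-2.46) and NCU04161 (-1.89) were further loci without a symbol that peaked in ve-1 standard cultures. In NCU04161 the peak was slight, at 84.8 and 84.5 CPM in ve-1 standard against 84.3 and 77.2 CPM in wild-type iron-free cultures, and both ve-1 effects were called, in opposite directions.

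The one called gene with a symbol was cys-16, of the cys series of sulfur genes. It stood at 60.5 and 64.2 CPM in ve-1 iron-free, 25.9 and 29.9 CPM in wild-type iron-free, 900.4 and 406 CPM in ve-1 standard and 17.6 and 16.2 CPM in wild-type standard cultures. The mutant was above wild type in both media, by 5.27 (log2) in standard medium, which was called, and by 1.16 in iron-free medium, which was not (edgeR adjusted p = 0.0666). The interaction was -4.11 ± 0.54 (edgeR adjusted p = 0.0444).

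Of the 19 tested genes in the sulfur list, which holds the cys, met, scon, ars and eth symbols, cys-16 was the only one called; over all tested genes 0.246% were. The list as a whole had a median interaction of 0.035, beside 0.069 for all tested genes, and the list median was above 0 in 7 of the 16 alternatives. At an unadjusted p under 0.05, 1 member was higher and 5 lower. Chosen after their values were seen, cys-14, a sulfate permease, had an interaction of -5.12 ± 0.74 (edgeR adjusted p = 0.0634) and ars-1, arylsulfatase, one of -5.55 ± 1.06 (edgeR adjusted p = 0.0854), both past DESeq2's threshold. The level of cys-14 was 3.76 and 4.34 CPM in ve-1 iron-free, 7.85 and 6.07 CPM in wild-type iron-free, 512 and 188 CPM in ve-1 standard and 22.0 and 12.5 CPM in wild-type standard cultures. That of ars-1 was 0.23 and 0.32 CPM in ve-1 iron-free, 0.18 and 0.58 CPM in wild-type iron-free, 29.7 and 14.8 CPM in ve-1 standard and 0.58 and 0.60 CPM in wild-type standard cultures. Both ve-1 standard libraries lay above all 6 others in 8 of the 19 members, these 3 among them, beside 16.9% of all tested genes. In 6 other members both ve-1 iron-free libraries were the highest. The median ve-1 effect of the list was 0.82 without iron and 1.10 with it. The interaction of cys-3, the positive regulator of sulfur uptake genes, was -0.72 ± 0.47 (edgeR adjusted p = 0.418), and 10 of the 19 members lay above 0.

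A second form, low in ve-1 iron-free cultures, appeared in 6 of the 13 lower genes, beside 9.6% of all tested genes. Over genes with a negative interaction the share was 16.7%. Of the 6, 5 were also high in ve-1 standard. NCU08229 was one, with 67.7 and 52.4 CPM in ve-1 iron-free, 441 and 442 CPM in wild-type iron-free, 981 and 597 CPM in ve-1 standard and 544 and 423 CPM in wild-type standard cultures. It fell in the mutant without iron (log2 difference -2.88, edgeR adjusted p = 0.005), and its difference with iron, 0.71, was not called (edgeR adjusted p = 0.126). The interaction was -3.59 ± 0.45 (edgeR adjusted p = 0.0406). In NCU06337 the margin was slight, at 4.70 and 5.79 CPM in ve-1 iron-free against 5.92 and 5.89 CPM in wild-type standard cultures. The ve-1 effect without iron was not called for NCU06337, NCU00877 and NCU01057 (edgeR adjusted p = 0.0922, 0.0864 and 0.156).

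NCU05188 was the called lower gene that did not peak in ve-1 standard cultures. It stood at 1.41 and 0.80 CPM in ve-1 iron-free, 120 and 109 CPM in wild-type iron-free, 36.5 and 26.3 CPM in ve-1 standard and 129 and 158 CPM in wild-type standard cultures. It fell in the mutant in both media, with a log2 difference of -6.71 without iron and -2.19 with it. Wild type kept about the same level in both media (iron effect -0.33, edgeR adjusted p = 0.471), and the interaction was -4.52 ± 0.43 (edgeR adjusted p = 0.017).

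The 7 higher genes were less uniform. In 4 of them both wild-type standard libraries lay above all others, against 11.2% of tested genes, and in 4 both ve-1 standard libraries lay below all others, against 17.5%, with 1 gene in both counts. NCU04482 was that gene, at 18.1 and 27.0 CPM in ve-1 iron-free, 32.5 and 39.6 CPM in wild-type iron-free, 4.32 and 5.04 CPM in ve-1 standard and 375 and 1081 CPM in wild-type standard cultures. Its interaction was 6.61 ± 0.75 (edgeR adjusted p = 0.0341), and iron deprivation went with a lower level in wild type and a higher one in ve-1, both called.

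NCU00175 stood at 15.5 and 26.4 CPM in ve-1 iron-free, 209 and 129 CPM in wild-type iron-free, 12.1 and 19.5 CPM in ve-1 standard and 2585 and 2924 CPM in wild-type standard cultures. Its level was low in the mutant in both media, and the interaction of 4.44 ± 0.57 (edgeR adjusted p = 0.0444) goes with a wild-type level that fell without iron. The log2 difference between mutant and wild type was -3.01 without iron and -7.44 with it. Here a positive interaction is a smaller deficit without iron and not a rise in the mutant.

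NCU06974 and NCU04644 crossed over. NCU06974 stood at 41.7 and 40.5 CPM in ve-1 iron-free, 6.22 and 5.61 CPM in wild-type iron-free, 57.3 and 69.4 CPM in ve-1 standard and 212 and 144 CPM in wild-type standard cultures. The mutant was above wild type without iron by 2.79 (log2) and below it with iron, the difference there being -1.49, and both were called. The interaction was 4.28 ± 0.36 (edgeR adjusted p = 0.0147), called in 12 of the 16 alternatives. NCU04644 had the same form, at 106 and 60.6 CPM in ve-1 iron-free, 32.2 and 24.1 CPM in wild-type iron-free, 79.3 and 91.3 CPM in ve-1 standard and 418 and 398 CPM in wild-type standard cultures (interaction 3.82 ± 0.45, edgeR adjusted p = 0.0341). For both genes the effect of iron was called in wild type and not in ve-1, whose level differed little between media.

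The remaining 3 higher genes were lowest in ve-1 standard cultures. NCU00876 stood at 235 and 247 CPM in ve-1 iron-free, 177 and 160.3 CPM in wild-type iron-free, 40.4 and 52.9 CPM in ve-1 standard and 202 and 185 CPM in wild-type standard cultures (interaction 2.56 ± 0.32, edgeR adjusted p = 0.0406). NCU00260 (2.69) and NCU01704 (2.69) had ve-1 effects called in opposite directions. Opposite calls were rare in the data as a whole: 17 of the 8118 genes (0.209%) had them, of which 7 were among the 20 called in the interaction, 4 higher and 3 lower. Among the 3 lower ones is NCU05887, with few counts in iron-free medium. A crossing is a form of the interaction, so the 7 are given as a description.

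**Figure D2:**
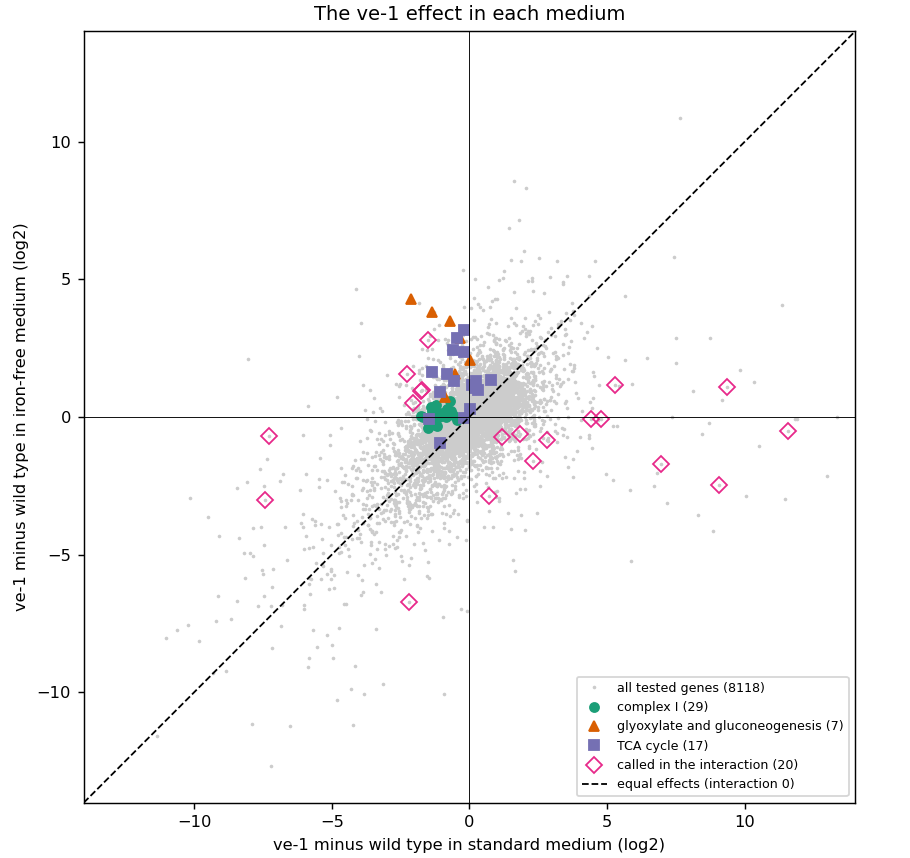
Difference between ve-1 and wild type in iron-free medium (y axis, log2) against the same difference in standard medium (x axis, log2) for all 8118 tested genes, where vertical distance from the dashed line is the interaction. Called genes lie away from the line, NCU10016 far to the right near 0 on the y axis, NCU05188 and NCU00175 in the lower left, complex I genes lie left of 0 at about 0 on the y axis, and glyoxylate and gluconeogenesis genes lie above the line.

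The larger set of 171 genes with an adjusted p under 0.10, a threshold chosen after the data were seen, was read for the same forms. Among the 90 higher genes, 36 were lowest in ve-1 standard, 35 highest in ve-1 iron-free, 33 lowest in wild-type iron-free and 25 highest in wild-type standard cultures, and a gene can count under 2 of these. Over all tested genes these shares were 17.5%, 12.7%, 8.8% and 11.2%. Among the 81 lower genes, 58 were highest in ve-1 standard (71.6%), 33 lowest in ve-1 iron-free, 19 lowest in wild-type standard and 16 highest in wild-type iron-free cultures, beside 16.9%, 9.6%, 9.21% and 9.51% of all tested genes. Over all 4325 tested genes with a positive interaction the shares, in the order given for the higher genes, were 29.5%, 22%, 12.7% and 17.3%. Over all 3793 with a negative one, in the order given for the lower genes, they were 32%, 16.7%, 15.2% and 14.3%. No single group therefore accounted for the positive side, while the ve-1 standard cultures stood apart in most of the negative side.

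**Figure D3:**
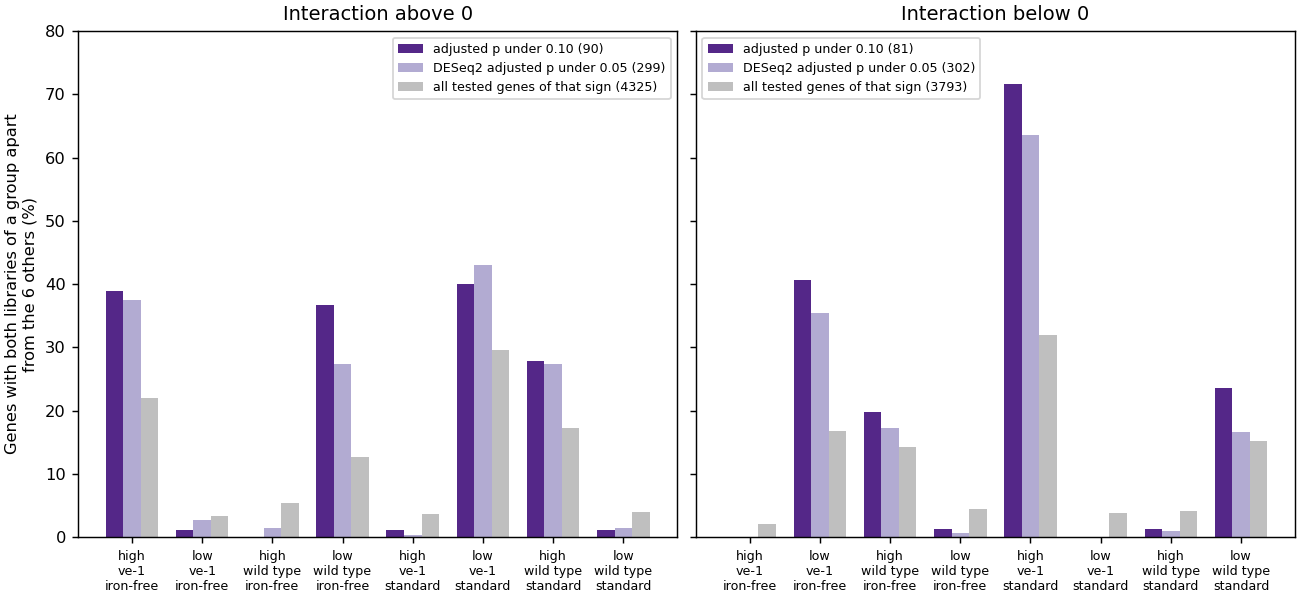
Share of genes (%) in which both libraries of a group lay above (high) or below (low) the 6 others, for interactions above 0 (left) and below 0 (right), in genes with an edgeR adjusted p under 0.10, genes called by DESeq2 and all tested genes of that sign. The tallest bar is high in ve-1 standard among negative interactions, 71.6% of 81 genes.

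By the calls of the ve-1 effect in the 2 media, the 90 higher genes held 43 with the effect called in iron-free medium only, 36 in standard medium only, 9 in opposite directions and 2 in the same direction. The 81 lower genes held 23, 47, 8 and 3 in those classes. Over all tested genes the effect was called in iron-free medium only for 9.14%, in standard medium only for 18.5% and in both in the same direction for 9.13%. The effect of iron was called in ve-1 only for 48 of the 90 and 64 of the 81, and in wild type only for 29 of the 90 and 15 of the 81, against 19.3% and 3.4% of all tested genes.

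Of the 171 genes with an adjusted p under 0.10, 32 have a symbol, and the positive ones among these include 7 of the tricarboxylic acid (TCA) cycle list, 4 of the glyoxylate and gluconeogenesis list, 2 of complex I and 2 of ATP synthase. None of these lists had a gene past 0.05, so what follows gives values and counts at an unadjusted p under 0.05, read against the 11.2% of all tested genes that were higher by that rule. The medians of the lists given first, from glyoxylate to ATP synthase, were above 0 in all 16 alternatives.

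**Figure D4:**
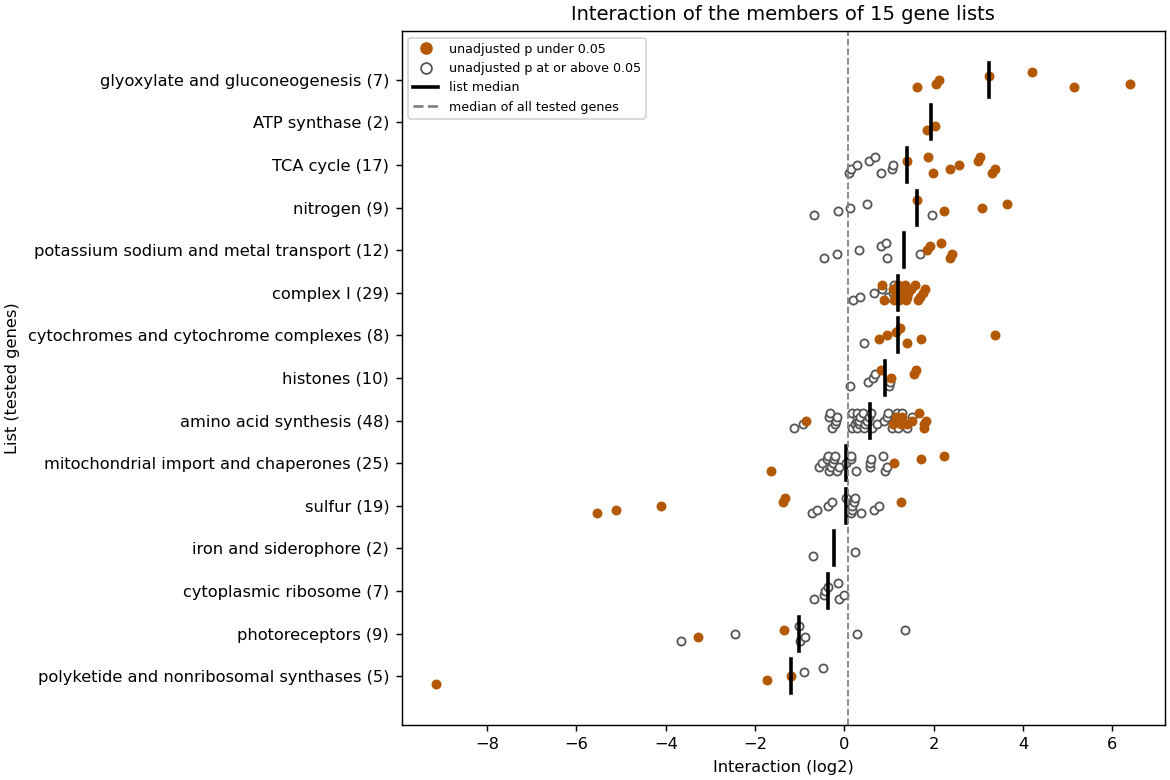
Interaction (log2, x axis) of each tested member of 15 gene lists, filled where the unadjusted p was under 0.05, with the list median as a black bar and the median of all 8118 genes as a dashed line. All members of the glyoxylate, ATP synthase, TCA cycle, complex I, cytochrome and histone lists lie above 0, and 3 sulfur genes lie below -4. The list labelled polyketide and nonribosomal synthases holds pks genes only.

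The genes of the glyoxylate shunt and gluconeogenesis, which let a fungus grow on acetate, had the highest list median, 3.24 over 7 genes, all 7 with an unadjusted p under 0.05 and 6 past DESeq2's threshold. The median ve-1 effect was 2.88 without iron and -0.72 with it, and the median effect of iron was 0.53 in ve-1 and -2.20 in wild type. In 6 of the 7 both wild-type iron-free libraries were the lowest of the 8. The commonest form in this list is therefore a low level in wild type without iron that the mutant did not share, with no called gene. The median ve-1 effect of -0.72 with iron also enters the interaction.

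For acu-6, phosphoenolpyruvate carboxykinase, the level was 8384 and 4042 CPM in ve-1 iron-free, 227 and 413 CPM in wild-type iron-free, 434 and 2678 CPM in ve-1 standard and 7151 and 6326 CPM in wild-type standard cultures (interaction 6.39 ± 1.19, edgeR adjusted p = 0.0854). For acu-9, malate synthase, it was 1773 and 2602 CPM in ve-1 iron-free, 135 and 179.6 CPM in wild-type iron-free, 323 and 1141 CPM in ve-1 standard and 2455 and 1282 CPM in wild-type standard cultures (5.15 ± 0.89, edgeR adjusted p = 0.0786). The isocitrate lyase gene acu-3 had 959.5 and 805 CPM in ve-1 iron-free, 75.0 and 83.6 CPM in wild-type iron-free, 321 and 1046 CPM in ve-1 standard and 1543 and 704 CPM in wild-type standard cultures (4.19 ± 0.84, edgeR adjusted p = 0.0886). In these 3 genes the ve-1 standard cultures lay far apart, with replicate 1 the lower, and the wild-type iron-free cultures were the lowest.

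The acetyl-CoA hydrolase gene acu-8 stood at 1185 and 1711 CPM in ve-1 iron-free, 188 and 205 CPM in wild-type iron-free, 374 and 532 CPM in ve-1 standard and 740.4 and 417 CPM in wild-type standard cultures (3.23 ± 0.52, edgeR adjusted p = 0.0725). The ve-1 iron-free libraries were the highest and the wild-type iron-free libraries the lowest. The interaction was 2.11 ± 0.54 for fbp-1, fructose bisphosphatase, 2.05 ± 0.57 for acu-15, a transcription factor of acetate use, and 1.62 ± 0.69 for acu-5, acetyl-CoA synthetase, with edgeR adjusted p of 0.114, 0.127 and 0.244.

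Genes named for the tricarboxylic acid cycle, with the citrate synthase gene cit-1, had a median interaction of 1.40 over 17 genes, 9 of them with an unadjusted p under 0.05, the same number past DESeq2's threshold and none lower. Their median ve-1 effect was 1.31 without iron and -0.20 with it. The level of cit-1 was 2056 and 2071 CPM in ve-1 iron-free, 419 and 378 CPM in wild-type iron-free, 529 and 638 CPM in ve-1 standard and 783 and 558 CPM in wild-type standard cultures (2.57 ± 0.38, edgeR adjusted p = 0.0642). The ve-1 iron-free cultures stood above the other 6, and the wild-type iron-free cultures below them.

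Other members took other forms. The level of tca-10 was 165 and 155 CPM in ve-1 iron-free, 15.4 and 20.2 CPM in wild-type iron-free, 166 and 251 CPM in ve-1 standard and 340 and 139 CPM in wild-type standard cultures (3.36 ± 0.62, edgeR adjusted p = 0.0837), low in wild-type iron-free alone. For tca-5 it was 1212 and 1233 CPM in ve-1 iron-free, 384 and 405 CPM in wild-type iron-free, 136 and 346 CPM in ve-1 standard and 581 and 653 CPM in wild-type standard cultures (2.99 ± 0.59, edgeR adjusted p = 0.0854), high in ve-1 iron-free and low in ve-1 standard, and both genes overlap another annotated gene. At the low end tca-17 (0.11), tca-9 (0.14) and tca-8 (0.28) lay near the median of all genes.

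The nuclear genes of complex I, the NADH dehydrogenase that feeds electrons into the respiratory chain and holds several iron-sulfur clusters, had another form. All 29 tested genes had an interaction above 0, between 0.20 and 1.80 with a median of 1.21, and 22 had an unadjusted p under 0.05 (9 past DESeq2's threshold). The median ve-1 effect was 0.01 without iron and -1.25 with it. In 23 of the 29 both ve-1 standard libraries were the lowest of the 8. This held for 17.5% of all tested genes and 29.5% of those with a positive interaction. The median level of the 29 was 132 and 111 CPM in ve-1 iron-free, 108 and 127 CPM in wild-type iron-free, 45.3 and 68.6 CPM in ve-1 standard and 118 and 139 CPM in wild-type standard cultures.

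As examples, nuo29.9 and nuo10.4 were chosen after their values were seen, as the complex I genes with an adjusted p under 0.10. The level of nuo29.9 was 227 and 201 CPM in ve-1 iron-free, 197 and 224 CPM in wild-type iron-free, 57.9 and 85.3 CPM in ve-1 standard and 219.7 and 268 CPM in wild-type standard cultures (1.80 ± 0.38, edgeR adjusted p = 0.0916). That of nuo10.4 was 127 and 120.3 CPM in ve-1 iron-free, 119 and 127 CPM in wild-type iron-free, 30.0 and 43.4 CPM in ve-1 standard and 110.2 and 126 CPM in wild-type standard cultures (1.70 ± 0.33, edgeR adjusted p = 0.0854), and this gene overlaps another annotated gene. The wild type and the iron-free mutant overlapped in both genes, and the ve-1 standard libraries were the low ones. With 1 library left out at a time, between 14 and 25 of the 29 had an unadjusted p under 0.05, and none was lower in any.

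The cytochrome list holds genes chosen by the symbols cyc, cyt, cya, cox and fes, not all of which need encode electron carriers or subunits of the chain. Of its 8 genes, 7 had an unadjusted p under 0.05, 3 passed DESeq2's threshold, and the median interaction was 1.21, equal to that of complex I. The median ve-1 effect was 1.43 without iron and 0.26 with it, beside 0.01 and -1.25 in complex I. The difference between the lists was not tested. For cyc-1, cytochrome c, the level was 133 and 74.6 CPM in ve-1 iron-free, 6.13 and 4.32 CPM in wild-type iron-free, 120 and 249 CPM in ve-1 standard and 144 and 51.2 CPM in wild-type standard cultures (3.38 ± 0.83, edgeR adjusted p = 0.112). For fes-1, the Rieske iron-sulfur protein, it was 219.8 and 212 CPM in ve-1 iron-free, 55.3 and 56.8 CPM in wild-type iron-free, 179 and 235 CPM in ve-1 standard and 218 and 132 CPM in wild-type standard cultures (1.71 ± 0.41, edgeR adjusted p = 0.105). In both genes the wild-type iron-free cultures were the low ones.

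The subunit genes of the ATP synthase catalytic head, atp-1 (alpha) and atp-2 (beta), had interactions of 2.02 ± 0.38 and 1.84 ± 0.36 (both edgeR adjusted p = 0.0854). The level of atp-2 was 3371 and 3561 CPM in ve-1 iron-free, 1169 and 1207 CPM in wild-type iron-free, 1049 and 1361 CPM in ve-1 standard and 1591 and 1376 CPM in wild-type standard cultures. It was highest in ve-1 iron-free, and the other 6 libraries lay between 1049 and 1591 CPM. Chosen after their values were seen, aac, the ADP/ATP carrier, had an interaction of 1.87 ± 0.36 (edgeR adjusted p = 0.0854) and qcr8, a subunit of complex III, one of 1.95 ± 0.40 (edgeR adjusted p = 0.0887), both with their highest libraries in ve-1 iron-free cultures. By contrast the list of mitochondrial import and chaperone genes had a median of 0.036 over 25 genes, above 0 in 8 of the 16 alternatives, with 3 higher and 1 lower at an unadjusted p under 0.05.

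**Figure D5:**
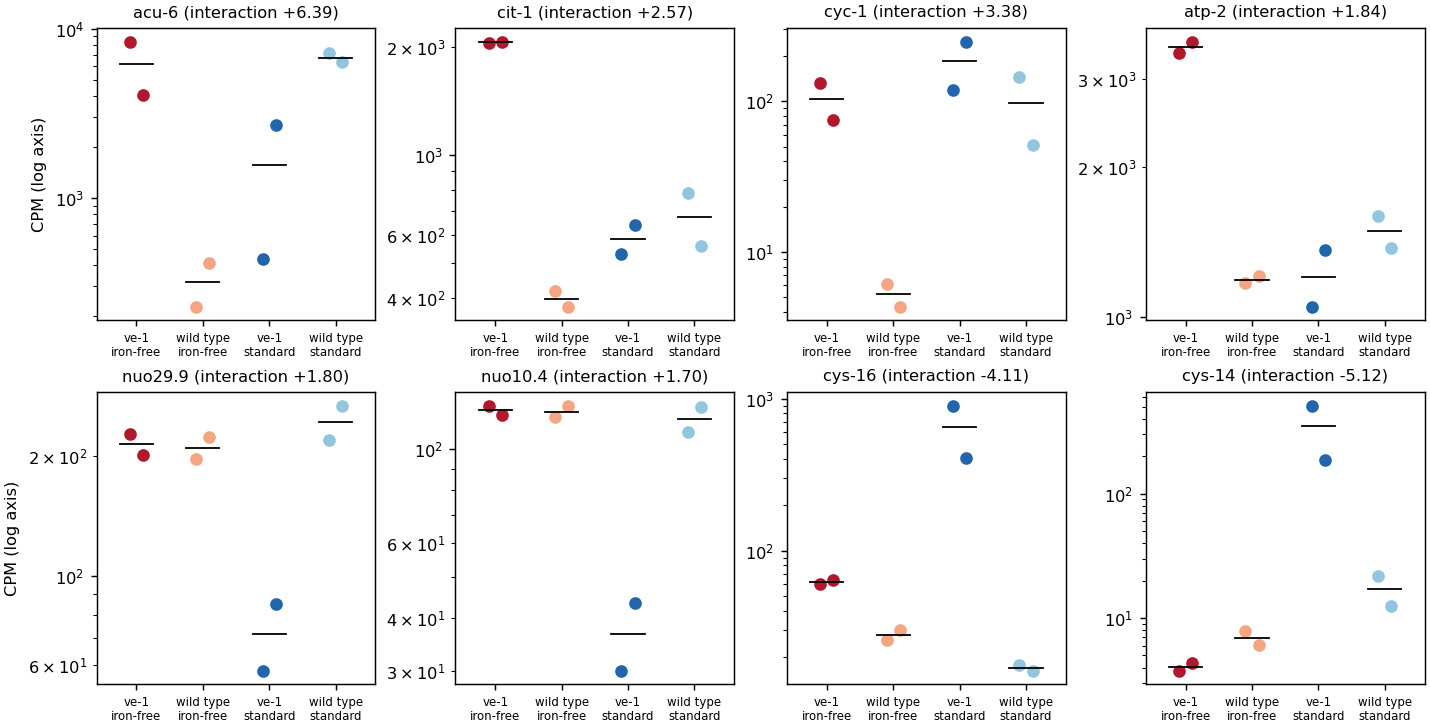
Level in CPM (log axis, each panel with its own range) of 8 genes in the 4 groups, with 1 point per culture and a bar at the mean. The panels show 3 forms: ve-1 iron-free high or wild-type iron-free low (acu-6, cit-1, cyc-1, atp-2), ve-1 standard low (nuo29.9, nuo10.4) and ve-1 standard high (cys-16, cys-14).

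Medians above that of all genes were also seen in the nitrogen list (1.62 over 9 genes, 4 higher and none lower at an unadjusted p under 0.05), the potassium, sodium and metal transport list (1.33 over 12 genes, 5 higher) and the histones (0.91 over 10 genes, 4 higher), and all 3 medians were above 0 in the 16 alternatives. Within the nitrogen list gln-1, a glutamine synthetase, stood at 1271 and 1679 CPM in ve-1 iron-free, 437 and 299 CPM in wild-type iron-free, 216 and 353 CPM in ve-1 standard and 750.4 and 441 CPM in wild-type standard cultures (3.07 ± 0.56, edgeR adjusted p = 0.0833). The nitrate reductase gene nit-3 had an interaction of 3.64 ± 0.98 (edgeR adjusted p = 0.122). Both were chosen after their values were seen, and both were highest in ve-1 iron-free cultures. Also chosen so were 2 genes of sugar use that were highest in wild-type standard cultures. The invertase gene inv, which overlaps another annotated gene, stood at 531 and 362 CPM in ve-1 iron-free, 160.0 and 272 CPM in wild-type iron-free, 309.6 and 569 CPM in ve-1 standard and 2148 and 1607 CPM in wild-type standard cultures (3.14 ± 0.59, edgeR adjusted p = 0.0854). The cellodextrin transporter gene cdt-2 had an interaction of 3.36 ± 0.52 (edgeR adjusted p = 0.0725).

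In the velvet list 2 of 4 genes were higher at an unadjusted p under 0.05, beside 11.2% of all genes, and none was called. Which members of the list other than ve-1 encode velvet proteins was not checked here. Of the members other than ve-1, which have no symbol in the annotation table, NCU05964 had an interaction of 3.004 ± 1.01 (edgeR adjusted p = 0.172), NCU02775 one of 1.03 ± 0.32 (edgeR adjusted p = 0.148) and NCU00646 one of 1.01 ± 0.82 (edgeR adjusted p = 0.524). The carotenoid list had no member with an unadjusted p under 0.05 among 6, and the conidiation list had 1 higher and 2 lower among 13. The list labelled polyketide and nonribosomal synthases held only polyketide synthase (pks) genes. Its 5 tested genes all lay below 0, with a median of -1.20. Of these, 3 of 5 were lower at an unadjusted p under 0.05, beside 9.09% of all genes. None of them was called, and the list median was below 0 in all 16 alternatives. The photoreceptor list had a median of -1.03 over 9 genes with 2 lower, and its members differed between replicates: vvd, a blue-light receptor, stood at 74.1 and 127 CPM in ve-1 iron-free, 123 and 2583 CPM in wild-type iron-free, 541 and 709 CPM in ve-1 standard and 201 and 1123 CPM in wild-type standard cultures. The 7 genes of the cytoplasmic ribosome list had a median of -0.36 and none with an unadjusted p under 0.05, against 20.3% of all tested genes.

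Several of the genes high in ve-1 standard cultures were neighbours in the order of the NC12 annotation, as seen after the values were known. From NCU05883 to NCU05888 all 6 tested genes were highest in both ve-1 standard libraries, though NCU05887 alone was called. Over all tested genes 16.9% had that form. The interactions of NCU05884 and NCU05886 had wide errors, -11.98 ± 4.29 and -5.53 ± 2.80 (edgeR adjusted p = 0.2 and 0.309). In that stretch NCU05883 stood at 331 and 167 CPM in ve-1 standard cultures and at no more than 0.15 CPM in any other library, and NCU05888 at 470 and 222 CPM in ve-1 standard and no more than 0.58 CPM in any other. NCU05885 stood at 1.64 and 2.49 CPM in ve-1 iron-free, 2.17 and 7.24 CPM in wild-type iron-free, 339 and 149 CPM in ve-1 standard and 10.1 and 12.4 CPM in wild-type standard cultures (-5.57 ± 0.89, edgeR adjusted p = 0.0725). The stretch was thus high in ve-1 with iron and at or near 0 elsewhere, with NCU05885 the least empty.

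A second run, NCU17271, NCU05766, NCU05767 and poi-2, had interactions of -7.06, -5.30, -5.06 and -9.22 and edgeR adjusted p between 0.0865 and 0.114. Here the 2 ve-1 standard cultures differed, with poi-2 at 633 CPM in replicate 1 and 71.3 CPM in replicate 2. Called neighbours did not always share a direction. NCU00877 (-2.46) and NCU00876 (2.56) are adjacent and were both called, one highest and the other lowest in ve-1 standard cultures. Between NCU01055 and NCU01057, both called, lies NCU01056, whose interaction of -1.55 ± 1.02 was not called (edgeR adjusted p = 0.427) and which was highest in wild-type standard cultures. Likewise NCU15835, whose span overlaps those of NCU10015 and NCU10016, had an interaction of -0.72 ± 0.32 (edgeR adjusted p = 0.262), and the counts of these overlapping genes, like that of NCU01055, are uncertain because the strand setting of the counting is not given.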

How the data were processed

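The authors deposited raw read counts per gene for each library, with no normalization, per the file headers and values. The submitters' processing notes name FastQC, Trim Galore, STAR and DESeq2 without versions, and the library kit in the labels' protocols keeps strand. How reads were counted, with which strand setting, build and annotation, is not stated. Groups came from the sample labels. The authors' 4 tables of comparisons were not used. Gene symbols came from RefSeq's annotation of assembly NC12, which matched 9729 of 9730 identifiers and served only for names, overlaps and gene order. No genome sequence was used.

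The analysis used edgeR 4.0.16 under R 4.3.3. The filterByExpr rule (minimum count 10, minimum total 15) left 8118 genes, 1089 of them with a symbol. After TMM scaling, 1 robust quasi-likelihood model covered all 4 groups, with 4 residual degrees of freedom. The interaction contrast was tested with the two-sided F test, p-values were adjusted by Benjamini and Hochberg over all tested genes, and calls were made under 0.05. The simple effects come from the same fit and serve only to describe genes, gene lists and background shares. Standard errors are the log2 value divided by the square root of F, with a median of 0.454. DESeq2 1.42.0, other scalings, no filter, non-robust dispersions, replicate blocks and leaving out each library were the alternatives. The fit was run on simulated counts with known changes set in the ve-1 iron-free group only and no other effects between groups. That run checked the size of the fitted contrast and is no support for single calls.

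Genes were named if called with a group mean of at least 50 CPM, taking the 5 highest and 5 lowest interactions, up to 3 with a symbol and 1 without for each form of group standing apart, up to 3 with a symbol for opposite ve-1 effects, up to 4 called members of each list, while members of the velvet, TCA cycle, glyoxylate and cytochrome lists could be named whether or not called. The other names were chosen after their values were seen, and the members and lists were chosen with earlier results of these data known. Over all genes, deviations of same-numbered cultures of a genotype were little correlated between media (r of -0.00239 in ve-1 and 0.0565 in wild type). Such a correlation over all genes cannot show that the cultures are unmatched, and matA-1 repeated by number in wild type though not in ve-1. The interaction was fitted without a block. The file names carry an identifier shared between media by genotype and number, so the blocked calls are given beside the main ones.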

Additional observations from a re-analysis of the deposited data

Results flagged for a closer look

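For 20 genes the effect of ve-1 differed between the 2 media by the test of the interaction itself (edgeR, adjusted p under 0.05), and the log2 values follow. The mutant stood lower against wild type without iron than with it for NCU10016 (-12.09), NCU05887 (-11.54), NCU01057 (-8.67), NCU07610 (-8.29), NCU10015 (-4.86), NCU05188 (-4.52), NCU01055 (-4.47), cys-16 (-4.11), NCU01572 (-3.90), NCU06337 (-3.68), NCU08229 (-3.59), NCU00877 (-2.46) and NCU04161 (-1.89). It stood higher for NCU04482 (6.61), NCU00175 (4.44), NCU06974 (4.28), NCU04644 (3.82), NCU01704 (2.69), NCU00260 (2.69) and NCU00876 (2.56). Groups of 2 cultures are too small to examine for single outlying libraries.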

How the results depend on the processing

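The number of called genes was 20 (7 higher, 13 lower). It was 35 (16 higher) with no low-count filter and 601 (299 higher, 302 lower) with DESeq2, and total-count scaling gave 21 lower genes. With 1 library left out it ranged between 0 and 22 (0 to 4 higher, 0 to 19 lower). The number was 0 when ve-1 iron-free replicate 1 or wild-type iron-free replicate 2 was dropped, 1 when ve-1 iron-free replicate 2 was, 2 and 3 when wild-type standard replicates 1 and 2 were, 4 and 20 when ve-1 standard replicates 1 and 2 were, and 22 when wild-type iron-free replicate 1 was. The cause was not tested, beyond the fewer samples in each such fit, where a lone culture is assumed to vary like the other groups. All 20 kept their sign. A replicate block of genotype and number together gave 14 calls (4 higher, 10 lower), 8 of them among the 20, and one of number alone gave 21, 12 of them among the 20; only the file names, through a shared identifier, tie cultures across media. Total-count scaling moved the median interaction of all genes by -0.227, to -0.158, and left 18 of the 20 called. The interaction of ve-1 itself, -0.13 and not called, ranged between -1.37 and 0.494 with 1 library dropped; it turned positive in 3 such fits, at 0.494 (ve-1 iron-free replicate 1 dropped), 0.236 (ve-1 standard replicate 2 dropped) and 0.139 (wild-type standard replicate 1 dropped). Over the single genes followed, 1646 values kept direction and side of the threshold, 157 lost the call, 66 gained it and 3 turned. With 4 residual degrees of freedom and a median standard error of 0.454, small interactions were not detectable here.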
